A study of Mus musculus with 6 samples.

Results

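Nuclear regulators of oocyte growth were followed in pools of M II oocytes from aged mice, matured with or without quercetin. The 10 genes were *Sohlh1*, *Sohlh2*, *Figla*, *Nobox*, *Lhx8*, *Tbpl2*, *Taf4b*, *Gata4*, *Pou5f1* and *Sall4*. They were chosen by name for their known roles, with earlier results of these data known. By symbol they matched 10 of the 53465 Ensembl genes in the count table. The 6 pools came from naturally aged Kunming (KM) mice, 9 to 10 months old, with no genetic alteration named in the labels. In the control group, 3 pools were matured in vitro (IVM) without quercetin, a plant flavonol used as an antioxidant, and in the quercetin group 3 pools were matured with 10 μM quercetin, for 16 h in both. Each pool combined 15 oocytes from 3 mice, so a value describes a pool, and less RNA per oocyte cannot be told apart from fewer oocytes carrying the RNA. Nothing in the labels says that the pools of a group came from separate mice or cultures, so p-values measure only the spread between these pools.

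In the mouse ovary, a small set of nuclear factors builds the oocyte. SOHLH1 and SOHLH2 are basic helix-loop-helix (bHLH) proteins of germ cells that act early, and FIGLA, another bHLH protein, pairs with E proteins on E-box motifs of the zona pellucida genes. The homeodomain proteins NOBOX and LHX8 are needed for oocytes to survive and grow, and genes such as *Gdf9* and *Bmp15* depend on NOBOX. TBPL2 stands in for the TATA-binding protein in growing oocytes, and TAF4B is a gonad-enriched subunit of the TFIID complex. POU5F1 (OCT4) and SALL4 belong both to oocytes and to the pluripotency network, while GATA4 is best known in the granulosa cells around the oocyte. M II oocytes make almost no new RNA, so the RNA measured at this stage is largely stored from growth.

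All 10 oocyte markers examined (*Gdf9*, *Bmp15*, *Zp1*, *Zp2*, *Zp3*, *Mos*, *Ddx4*, *Dazl*, *Zar1* and *Nlrp5*) had at least 1045 counts in every pool. They were not equally steady between pools: *Zp2* ran from 1045 to 12980 counts and *Gdf9* from 46443 to 59906. Among 16 cumulus and granulosa markers, 11 had reads, 6 of them in every pool (*Cyp19a1*, *Nr5a2*, *Kitl*, *Has2*, *Ptgs2* and *Fshr*), and 5 had 0 counts in all 6 pools (*Amh*, *Amhr2*, *Foxl2*, *Ptx3* and *Npr2*). Total counts ran from 7880467 to 9938743 per pool. Levels are given as CPM, the usual count of reads relative to library size, after edgeR's TMM scaling, whose factors ran from 0.92 to 1.06, and a gene at 3 counts, the floor used here, lay at 0.329 to 0.376 CPM. This floor covers counting error only, since reads carried no molecular identifiers. A principal component analysis of all tested genes put 32.4% of the variance on its first axis, which did not part the groups: quercetin replicates 1 and 2 scored -37.9 and -30.9, control replicates 1 and 3 scored -3.34 and 10.1, and quercetin replicate 3 and control replicate 2 scored 30.8 and 31.3.

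Because 3 of the genes encode bHLH proteins, which bind E-boxes (CANNTG), the promoters of the bHLH genes *Sohlh1* and *Figla*, of *Nobox* and of *Tbpl2* are shown first. These are the genes whose 250 bases before the RefSeq start (build GRCm38.p6) held at least 2 E-boxes and no annotated exon of the gene. E-boxes are in capitals, and the motif reads alike on both strands.
Sohlh1 (chr2:25847249-25847498, minus strand): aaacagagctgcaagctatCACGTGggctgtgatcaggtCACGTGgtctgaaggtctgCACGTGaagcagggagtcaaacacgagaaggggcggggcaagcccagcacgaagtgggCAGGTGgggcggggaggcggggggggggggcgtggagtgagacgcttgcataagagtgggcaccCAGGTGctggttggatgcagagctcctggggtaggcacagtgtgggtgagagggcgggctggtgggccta
Figla (chr6:86016941-86017190, plus strand): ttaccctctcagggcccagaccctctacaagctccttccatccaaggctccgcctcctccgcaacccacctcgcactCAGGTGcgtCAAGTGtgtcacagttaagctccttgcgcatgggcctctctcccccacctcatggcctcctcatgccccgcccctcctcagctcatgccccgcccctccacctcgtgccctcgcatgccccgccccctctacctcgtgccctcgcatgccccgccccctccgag
Nobox (chr6:43309555-43309804, minus strand): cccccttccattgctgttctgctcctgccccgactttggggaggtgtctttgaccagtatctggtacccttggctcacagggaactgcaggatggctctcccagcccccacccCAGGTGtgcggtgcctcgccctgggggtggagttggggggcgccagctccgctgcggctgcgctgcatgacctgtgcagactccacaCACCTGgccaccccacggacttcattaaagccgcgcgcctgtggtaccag
Tbpl2 (chr2:24096596-24096845, minus strand): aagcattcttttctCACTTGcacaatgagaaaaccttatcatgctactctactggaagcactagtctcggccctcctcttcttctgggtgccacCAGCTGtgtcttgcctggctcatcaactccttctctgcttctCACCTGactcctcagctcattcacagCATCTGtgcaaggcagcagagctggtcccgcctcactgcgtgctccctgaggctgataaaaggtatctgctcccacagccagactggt

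The *Sohlh1* promoter held 5 E-boxes, of which 3 were CACGTG, at positions -231, -211 and -192 from the start. An E-box of any form stood in 66.2% of all 32851 promoter windows of this length, and 3 or more in 12.2%. CACGTG, which is 1 form of CANNTG, stood in 6.02% of windows, and 3 or more copies in 0.0609%. *Tbpl2* held 4 E-boxes and *Nobox* and *Figla* 2 each, with CAGGTG or its reverse complement CACCTG in each of these 3 windows. *Sohlh2* had 1 E-box, the *Pou5f1* windows 1 and 2, and the *Lhx8* window 0. None of the windows held the homeodomain words TAATTG or TAATTA, the word TGATTG, the octamer ATGCAAAT or the TATA box TATAAA on either strand, which stood in 7.17%, 4.84%, 12.7%, 1.6% and 12.4% of all windows. These matches describe the letters of the windows only. The *Figla* window lies inside the longer *Figla* gene model of GENCODE M21, between its exons. *Gata4*, *Taf4b* and *Sall4* had no window to search.

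The 10 genes spanned a wide range of levels in oocytes. Compared per kilobase of exon, *Sall4* was highest, at 137 ± 31.3 CPM per kilobase (SD, n = 6), in every pool above the next gene, *Tbpl2*, at 29.7 ± 6.35. *Pou5f1* (21.5 ± 4.12), *Nobox* (16.2 ± 6), *Sohlh2* (11.2 ± 2.85), *Lhx8* (6.37 ± 1.57), *Taf4b* (4.92 ± 0.557), *Gata4* (3.34 ± 0.624) and *Figla* (0.881 ± 0.534) followed, and *Sohlh1* had 0. From *Tbpl2* down to *Taf4b*, the range of each gene over the 6 pools overlapped that of the next. Within pools, *Tbpl2* was above *Pou5f1* in 4 of 6, and *Pou5f1* above *Nobox*, *Nobox* above *Sohlh2* and *Lhx8* above *Taf4b* in 5 of 6 each. *Sohlh2* was above *Lhx8* in 6 of 6 pools. *Taf4b* was separated from *Gata4*, and *Gata4* from *Figla*, in every pool. By the same measure *Sall4* stood above 96% of the tested genes (percentile 96.3) and *Gata4* near the middle (percentile 50.2), where the median of all tested genes was 3.3 CPM per kilobase.

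**Figure D1:**
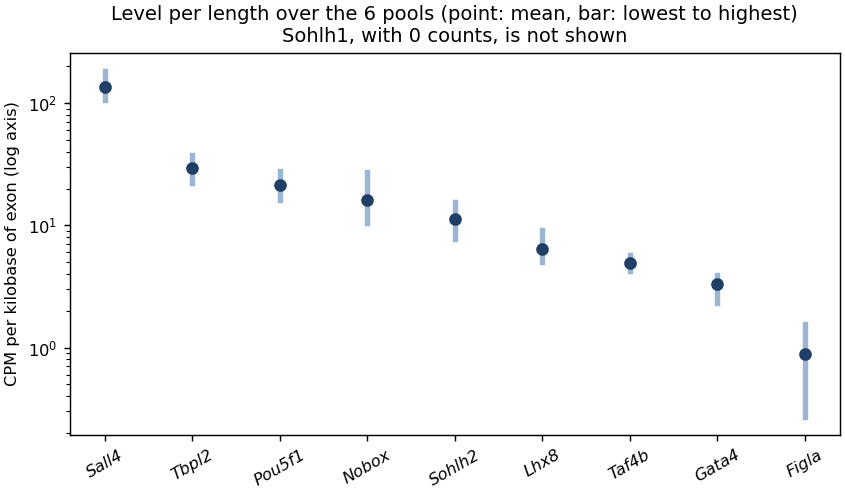
Level of each gene in CPM per kilobase of exon (vertical log axis), with the mean of the 6 pools as a point and the lowest to highest pool as a bar. *Sall4* lies apart at 137 CPM per kilobase, *Tbpl2* to *Taf4b* form an overlapping series from 29.7 to 4.92, and *Figla* is lowest of those with reads, at 0.881.

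The question of the comparison was whether quercetin during IVM changed the RNA of these genes in aged oocytes. Of the 10 genes, 8 had enough counts for edgeR's filter and were tested among 11842 genes. A call required a Benjamini-Hochberg adjusted p under 0.05 (edgeR, quasi-likelihood) together with a fold change above 2. None of the 8 met both, and neither did any other tested gene (0%). Without adjustment, 0 of the 8 had a p under 0.05, against 4.03% of all tested genes. DESeq2 had 1 of the 8 under 0.05 without adjustment (*Sohlh2*), limma-voom and edgeR's likelihood ratio test 0, and each called 0 of the 8 after adjustment. Over all tested genes DESeq2 called 12, the likelihood ratio test 16 and limma-voom 0. Of all tested genes with an unadjusted p under 0.05, 253 were higher and 224 lower with quercetin, a split that scaling by library size only turned to 145 and 362, with a median log2 fold change over all tested genes of -0.111. The median log2 fold change of the 8 was 0.00, beside -0.026 over all tested genes.

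**Figure D2:**
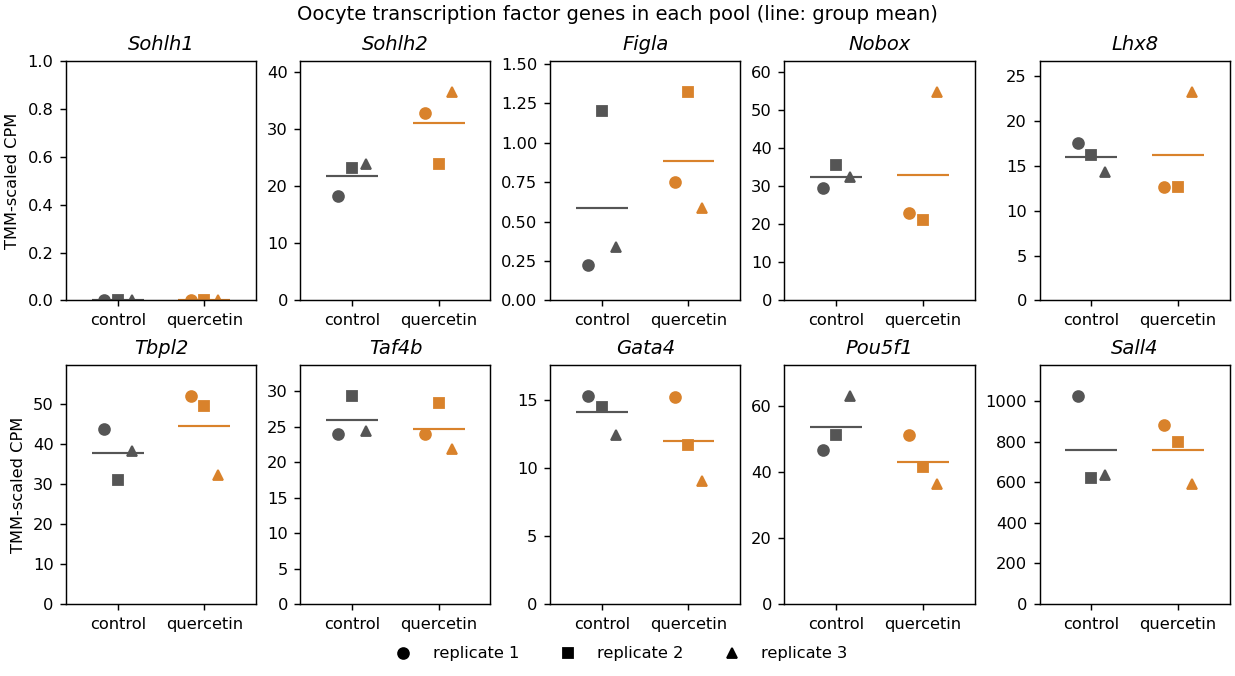
TMM-scaled CPM (vertical axes from 0, a scale for each gene) of the 10 genes in the 3 control pools (grey) and the 3 quercetin pools (orange), with the replicate number as the symbol and the group mean as a line. The pools of the groups overlap in every gene with reads other than *Sohlh2*, and for *Nobox* and *Lhx8* quercetin replicate 3 lies above all other pools while replicates 1 and 2 lie below the controls.

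Among the early bHLH regulators, *Sohlh1* (ENSMUSG00000059625, chromosome 2 from 25842995 to 25847248, minus strand) had 0 counts in each of the 6 pools. A count of 0 allows up to 0.329 to 0.376 CPM depending on the pool, so *Sohlh1* RNA was not detectable at this depth in either group. Its partner *Sohlh2* (ENSMUSG00000027794, chromosome 3 from 55182028 to 55209957, plus strand) had 163, 193 and 212 reads counted in the controls, against 261, 218 and 309 after quercetin. These were 18.3, 23.2 and 23.9 CPM without quercetin and 32.7, 23.9 and 36.4 CPM with it, or 21.8 ± 3.04 and 31 ± 6.4 (SD, n = 3). Quercetin replicate 2 lay barely above the highest control pool, and the other quercetin pools lay well above. *Sohlh2* had a log2 fold change of 0.51 (standard error 0.23, 95% interval of the fold 0.999 to 2.02), with an unadjusted p = 0.0503 and an adjusted p = 0.988 in edgeR. The pools did not overlap in TMM-scaled CPM (exact permutation of log2 CPM, two-sided, p = 0.1, the smallest that 3 pools against 3 can give), and neither did those of 10.6% of all tested genes, 5.42% with quercetin higher and 5.17% with quercetin lower. By library size only, quercetin replicate 2 had 21.9 CPM and lay below control replicates 2 and 3, so the groups then overlapped, and 3.9% of all tested genes were separated upward and 7.3% downward.

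*Figla* (ENSMUSG00000030001, chromosome 6 from 86016171 to 86020996, plus strand) had counts of 2, 10 and 3 without quercetin and 6, 12 and 5 with it. With so few reads it did not pass the filter over all 6 pools and has no test there. At 0.588 ± 0.535 CPM in control and 0.885 ± 0.382 CPM in quercetin pools (SD, n = 3), the groups were not separate (exact permutation of log2 CPM, two-sided, p = 0.4). In both groups the pool numbered 2 was highest. The log2 ratio of the group means was 0.59. Leaving out 1 pool moved it between 0.19, without quercetin replicate 2, and 1.66, without control replicate 2, where 2 and 3 counts remained in the control pools. It was 0.20 without control replicate 1 and 0.31 without control replicate 3.

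The homeobox gene *Nobox* (ENSMUSG00000029736, chromosome 6 from 43303674 to 43309554, minus strand) had 264, 295 and 288 reads counted in the controls, against 183, 192 and 464 after quercetin. In CPM these were 29.6, 35.5 and 32.4 in controls and 22.9, 21.1 and 54.6 with quercetin. Quercetin replicates 1 and 2 lay below every control pool and replicate 3 above every one, so the group means of 32.5 ± 2.92 and 32.9 ± 18.9 CPM (SD, n = 3) stood beside a much wider spread among the quercetin pools. The log2 fold change was 0.02 (standard error 0.35, 95% interval of the fold 0.585 to 1.75), with an adjusted p = 0.999 in edgeR. Without quercetin replicate 3 it was -0.56, with an unadjusted p = 0.0185 and an adjusted p = 0.305 in the same test, when 12.8% of all tested genes had an unadjusted p under 0.05. The coefficient of variation of *Nobox* was 8.99% over control pools and 57.4% over quercetin pools, and 8.86% of the tested genes varied more among the quercetin pools.

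*Lhx8* (ENSMUSG00000096225, chromosome 3 from 154306294 to 154330659, minus strand), which encodes a LIM homeodomain protein, had its quercetin pools placed the same way around the controls. It had counts of 157, 135 and 127 without quercetin and 101, 116 and 197 with it, or 17.6, 16.2 and 14.3 CPM against 12.7, 12.7 and 23.2. Again quercetin replicates 1 and 2 were lowest of the 6 and replicate 3 highest. The log2 fold change was 0.01 (standard error 0.28, 95% interval of the fold 0.651 to 1.56, edgeR adjusted p = 0.999), and without quercetin replicate 3 it was -0.34 (unadjusted p = 0.149). This order, with quercetin replicates 1 and 2 below and replicate 3 above all controls, was found in 725 of the 11842 tested genes (6.12%), and the opposite order in 3.33%. In quercetin replicates 1, 2 and 3, *Nobox* deviated by -0.43, -0.56 and 0.81 and *Lhx8* by -0.31, -0.30 and 0.55 from its own mean log2 CPM. The first principal component scored -37.9, -30.9 and 30.8 in these pools. Control replicate 2 had the highest score on that component, 31.3, but *Nobox* deviated there by only 0.19 and *Lhx8* by 0.04. The part of that component in the levels of *Nobox* and *Lhx8* was not tested.

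**Figure D3:**
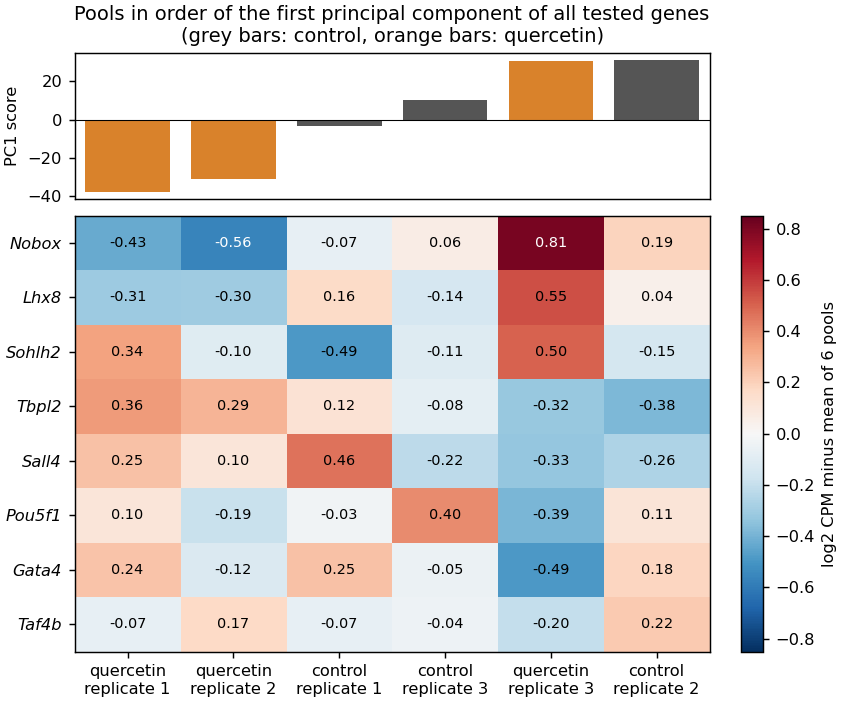
Pools from left to right in order of their score on the first principal component of all tested genes (top bars), with the log2 CPM of each tested gene minus its own mean over the 6 pools (cells, red above and blue below the mean). *Nobox* and *Lhx8* are low in quercetin replicates 1 and 2 and high in quercetin replicate 3, where *Tbpl2*, *Sall4*, *Pou5f1*, *Gata4* and *Taf4b* are below their means.

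The likeness of profiles was measured as the root mean square difference of log2 CPM over the 6 pools after centring each gene on its mean, where smaller is more alike. For *Nobox* the nearest of all tested genes were *Rab3gap1* (0.0744), *Taf1b* (0.0784) and *Osbpl9* (0.0805). For *Lhx8* they were *Nr2e1* (0.0763), *Ccar1* (0.0813) and *Polr3d* (0.0828). *Nobox* and *Lhx8* differed by 0.208 from each other. With 11842 genes tested, this placed *Lhx8* 232nd in the order around *Nobox* and *Nobox* 512th in the order around *Lhx8*. The other tested factors lay farther from *Nobox*, from *Sohlh2* at 0.452 to *Tbpl2* at 0.709. These values describe 6 pools that share depth and preparation, and *Figla* was too low to be placed.

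For both general transcription factor genes the groups overlapped. *Tbpl2* (ENSMUSG00000061809, chromosome 2 from 24071721 to 24096595, minus strand) had 389, 257 and 339 reads counted in the controls, against 414, 450 and 273 after quercetin, or 37.6 ± 6.4 and 44.5 ± 10.7 CPM (SD, n = 3). Quercetin replicates 1 and 2 were above every control pool, and replicate 3 was above only control replicate 2. *Tbpl2* had a log2 fold change of 0.24 (standard error 0.23, 95% interval of the fold 0.82 to 1.71). *Taf4b* (ENSMUSG00000054321, chromosome 18 from 14783245 to 14900359, plus strand) had counts of 214, 244 and 217 without quercetin and 191, 258 and 186 with it. At 25.9 ± 2.96 and 24.7 ± 3.27 CPM (SD, n = 3) it varied least of the 9 genes with reads over the 6 pools, with a coefficient of variation of 11.3%, and its pools overlapped. *Taf4b* had a log2 fold change of -0.07 (standard error 0.20, 95% interval of the fold 0.699 to 1.3).

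*Gata4* (ENSMUSG00000021944, chromosome 14 from 63198922 to 63271692, minus strand) had 136, 121 and 110 reads counted in the controls, against 121, 107 and 77 after quercetin. Its CPM were 15.3, 14.5 and 12.4 against 15.2, 11.7 and 9.06, so quercetin replicates 2 and 3 lay below every control pool and replicate 1 beside the highest. The log2 fold change was -0.23 (standard error 0.25, 95% interval of the fold 0.576 to 1.26, unadjusted p = 0.378 in edgeR). Since GATA4 is known from granulosa cells, the cumulus and granulosa markers were read beside it. Their summed level was 82.4 to 101 CPM in control pools and 108 to 110 CPM in quercetin pools, whereas by library size only it was 86.9 to 104 and 101 to 114 CPM and the groups overlapped. *Gata4* averaged 14.1 ± 1.5 CPM in control and 12 ± 3.05 CPM in quercetin pools (SD, n = 3). Most of the marker sum came from *Cyp19a1*, the gene of aromatase, with 486 to 692 counts a pool. *Nr5a2* had 96 to 146 counts a pool, *Kitl* 64 to 112, *Has2* 14 to 49 and *Fshr* 6 to 18, while *Foxl2*, *Amh* and *Amhr2* were at 0. The part of other cells in the *Gata4* reads was not tested. *Gata6*, the GATA paralogue also known from granulosa cells, had counts of 48, 32 and 35 without quercetin and 35, 55 and 14 with it, with overlapping groups.

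*Pou5f1* (ENSMUSG00000024406, chromosome 17 from 35506018 to 35510772, plus strand), the gene of OCT4, had 415, 427 and 561 reads counted in the controls, against 409, 380 and 308 after quercetin. In CPM these were 46.6, 51.3 and 63.1 against 51.2, 41.7 and 36.3. Quercetin replicates 2 and 3 lay below every control pool, whereas replicate 1 lay among them. *Pou5f1* had a log2 fold change of -0.32 (standard error 0.20, 95% interval of the fold 0.585 to 1.1, unadjusted p = 0.148 and adjusted p = 0.988 in edgeR). Of its exon length, 14.1% overlaps *Gm19553* on the other strand, and reads of the pair cannot be told apart without strand.

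*Sall4* (ENSMUSG00000027547, chromosome 2 from 168748332 to 168767943, minus strand), which encodes a zinc finger protein, was the most abundant of the 10. It had counts of 9131, 5156 and 5667 without quercetin and 7044, 7272 and 5017 with it, or 761 ± 229 and 757 ± 150 CPM (SD, n = 3). Control replicate 1 was highest, at 1025 CPM, and the groups overlapped. The log2 fold change was -0.01 (standard error 0.23, 95% interval of the fold 0.693 to 1.43) and was 0.27 without control replicate 1. An overlap of 9.5% of its exon length with *Gm14261* on the other strand means that reads there cannot be assigned to either gene without strand.

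**Figure D4:**
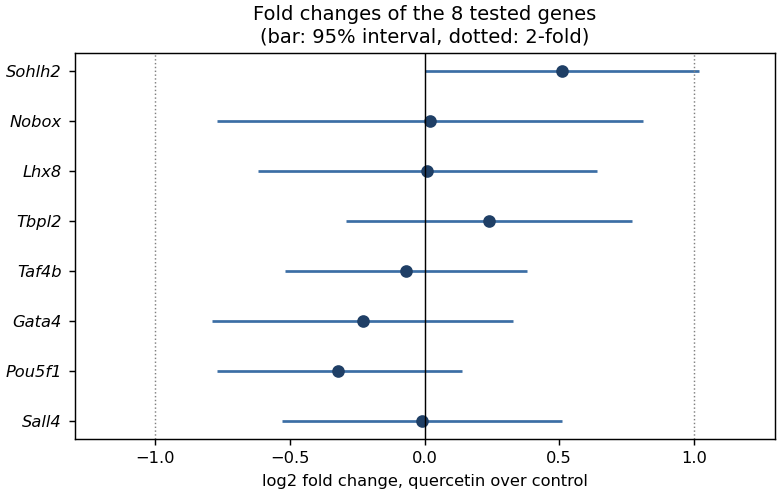
Log2 fold change of the 8 tested genes, quercetin over control (horizontal axis), with the 95% interval from edgeR's quasi-likelihood fit as a bar and dotted lines at a fold change of 2. Every interval reaches 0, and the interval of *Sohlh2* is the only 1 to pass a fold change of 2, on its upper side, at 2.02.

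Genes that are commonly placed downstream of these factors were tested in full, 24 of 24. After adjustment 0 of 24 were called, and without adjustment 0 were higher and 1 was lower with quercetin, where 2.14% of all tested genes were higher and 1.89% lower. The 1 gene was *Ooep*, of the subcortical maternal complex, with 4367, 8081 and 6157 reads counted in the controls, against 1885, 2454 and 5410 after quercetin (log2 fold change -0.92, standard error 0.38, unadjusted p = 0.0412). Its groups overlapped, since quercetin replicate 3 lay above control replicate 1. The 4 most abundant were *H1foo*, the oocyte linker histone, at 6594 ± 980 and 7566 ± 253 CPM, *Oosp1*, an oocyte secreted protein gene, at 6124 ± 713 and 5857 ± 1235 CPM, *Gdf9* at 5760 ± 154 and 6725 ± 750 CPM, and *Oas1d* at 4159 ± 185 and 5062 ± 409 CPM in control and quercetin pools (SD, n = 3). *Gdf9* had a log2 fold change of 0.22 (unadjusted p = 0.148 in edgeR). The study lists *Gdf9* among its up-regulated genes and also ran qPCR on selected genes. *Gdf9* and *Oas1d* were the 2 genes of the 24 whose quercetin pools all lay above the controls in TMM-scaled CPM, as did those of 5.42% of all tested genes. By library size only the *Gdf9* groups overlapped, with quercetin replicate 2 at 5511 CPM below every control pool (5822 to 6027 CPM). Those of *Oas1d* stayed apart, at 4034 to 4615 CPM in control and 4822 to 4943 CPM in quercetin pools, where 3.9% of all tested genes were separated upward. For *Oas1d*, 22.3% of the 31-base words of its exons occur in other genes too. The median log2 fold change was 0.09. Of the 24 genes, 14 had promoter windows, 19 in all, of which 15 (78.9%) held an E-box, against 66.2% of all windows. Counted by gene, 12 of the 14 had an E-box. Windows of the same gene are not independent, and the difference from all windows was not tested.

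Other general transcription factor genes, mostly of TFIID and TFIIA, were all tested, 20 of 20, with a median log2 fold change of 0.05. *Tbp*, the gene of the TATA-binding protein itself, had 63.6 ± 3.06 and 61.7 ± 0.477 CPM (SD, n = 3), that is, -0.04 on the log2 scale. Without adjustment 1 of the 20 had a p under 0.05, near the 4.03% of all tested genes. It was *Taf9*, at counts of 609, 622 and 278 without quercetin and 1816, 1022 and 740 with it (log2 fold change 1.29, standard error 0.41, unadjusted p = 0.0113 and adjusted p = 0.988 in edgeR). Of its exon length, 73.8% overlaps *Ak6* on the same strand, so the reads of *Taf9* are uncertain.

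Among 17 partner genes of the factors, 12 were tested, with a median log2 fold change of -0.07, and 1 had an unadjusted p under 0.05, where 4.03% of all tested genes did. This was *Rbbp7*, a histone-binding subunit of complexes that SALL4 recruits, at 4506 ± 466 and 5694 ± 434 CPM in control and quercetin pools (SD, n = 3, log2 fold change 0.34, standard error 0.14, unadjusted p = 0.044), with 5.98% of its exon length overlapping *Txlng* and 16.5% of its 31-base words found in other genes. *Tcf3*, *Tcf4* and *Tcf12*, which encode the E proteins that pair with FIGLA, had log2 fold changes of -0.22, 0.11 and 0.04 with overlapping groups.

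Of 22 paralogues of the factors, 7 had 0 counts in all pools, 6 had some reads but too few, and 9 were tested. *Pou2f2*, a POU family relative of *Pou5f1*, was the 1 with an unadjusted p under 0.05, where 4.03% of all tested genes had one. It had 151, 103 and 71 reads counted in the controls, against 37, 40 and 40 after quercetin, a log2 fold change of -1.44 (standard error 0.31, unadjusted p = 0.00124 and adjusted p = 0.792 in edgeR). Every quercetin pool of *Pou2f2* lay below every control pool under both scalings. Of all tested genes, 5.17% were separated downward in TMM-scaled CPM and 7.3% by library size only. *Pou2f1* had a log2 fold change of -0.03, and the difference between both genes was not tested. The other abundant paralogues were *Gata3*, at 144 ± 23.5 and 150 ± 30 CPM, and *Isl2*, at 44.3 ± 12 and 43.3 ± 18 CPM (SD, n = 3).

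Other oocyte transcription factors and partners in the pluripotency network gave 0 genes with an unadjusted p under 0.05, of 15 and 6 tested in edgeR's quasi-likelihood test. *Foxo3*, which holds primordial follicles dormant, had counts of 869, 654 and 681 without quercetin and 603, 601 and 383 with it, and *Smad2* 441, 349 and 367 against 510, 503 and 431. These were the 2 genes of the 15 without overlap between the groups in TMM-scaled CPM, *Foxo3* lower (log2 fold change -0.44, unadjusted p = 0.0721) and *Smad2* higher (0.35, unadjusted p = 0.0726), and they were named after their values were seen. Among all tested genes 10.6% had no overlap, 5.42% higher and 5.17% lower. By library size only *Smad2* overlapped, with quercetin replicate 2 at 50.6 and control replicate 1 at 50.9 CPM. Beside *Pou5f1*, the pluripotency gene *Nanog* had 0 counts in every pool and *Sox2* 3 to 8, while *Dppa3* (STELLA), a maternal factor, had 8238 ± 386 and 8904 ± 1786 CPM (SD, n = 3). Among the cumulus and granulosa markers 5 of 16 were tested, and 1 had an unadjusted p under 0.05, *Kitl*, where 4.03% of all tested genes did. For *Kitl* and *Cyp19a1*, every quercetin pool lay above every control pool under both scalings. The groups of the other tested markers overlapped under both, with log2 fold changes of 0.09 (*Nr5a2*), 0.05 (*Has2*) and -0.68 (*Ptgs2*). Of all tested genes, 5.42% were separated upward in TMM-scaled CPM and 3.9% by library size only. *Kitl*, the ligand of the oocyte receptor KIT, had 71, 64 and 77 reads counted in the controls, against 95, 112 and 106 after quercetin (log2 fold change 0.59, standard error 0.21, unadjusted p = 0.0209 and adjusted p = 0.988 in edgeR). Of 9 markers of theca, stroma and blood, 4 had 0 counts in all pools and 2 were tested, with unadjusted p-values of 0.401 (*Dcn*) and 0.676 (*Pecam1*).

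**Figure D5:**
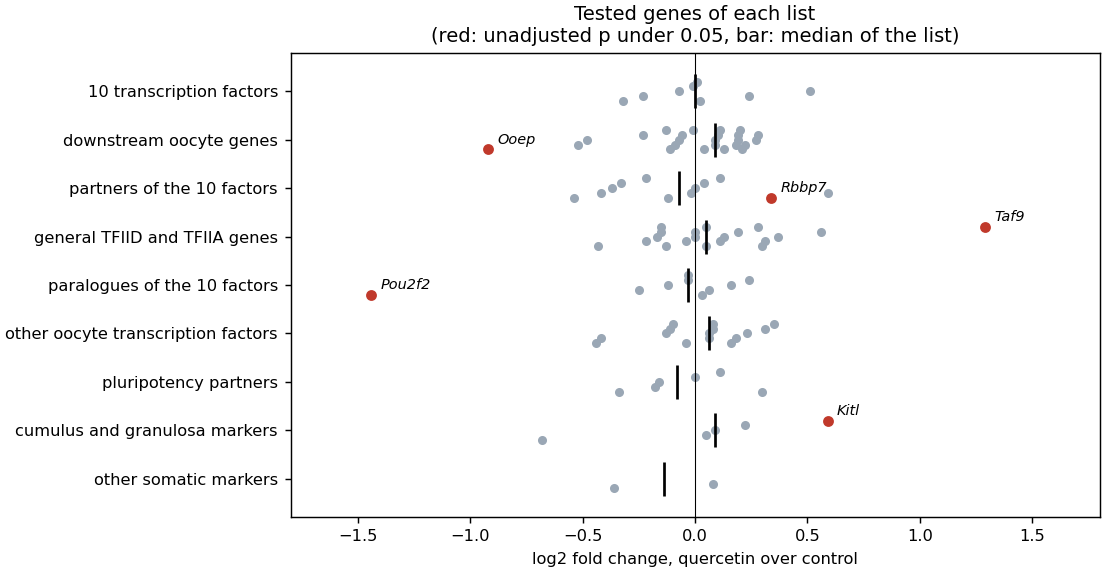
Log2 fold change, quercetin over control (horizontal axis), of every tested gene in the 10 transcription factors and the related lists (rows), with the median of each list as a bar. Red points are the 5 genes with an unadjusted p under 0.05, *Ooep*, *Rbbp7*, *Taf9*, *Pou2f2* and *Kitl*, and none of them is among the 10 factors.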

How the data were processed

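RNA of the 6 pools was amplified with a Smart-seq HT Kit, and the labels also cite a TruSeq guide. The authors deposited raw counts of reads per Ensembl gene and pool, with no normalization. The study's methods name Hisat2 and GRCm38.91, whereas the submitters' processing notes list TopHat2 2.0.6 and CASAVA 1.8. The counting program and its use of strand and of multiply mapped reads are not given in the sources used here. Symbols matched 53274 of 53465 identifiers, and coordinates and exon lengths came from GENCODE M21 on GRCm38. Genes passing filterByExpr (minimum count 10), 11842 of 24476 with a count, were compared by edgeR 4.0.16 (glmQLFit and glmQLFTest, TMM, no covariate, R 4.3.3). The criteria of a call were those of the study: adjusted p below 0.05 with more than a 2-fold change. The study reported genes passing them in both directions, whereas edgeR's quasi-likelihood test called none here. Its methods do not name the test used for the RNA-seq. The standard error is the log2 fold change divided by the square root of F, and the interval uses the t quantile of the fit. Levels per length divide TMM-scaled CPM by kilobases of merged exons. Log2 CPM used a prior count of 2. The fit was tested on simulated data, in which the spread depended on level only and genes varied independently, unlike in these pools. Exact permutation tests used scipy 1.17.1.

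The 10 genes and all lists were chosen with earlier results of these data known. Named are the 10 genes, list genes with an unadjusted p under 0.05 (up to 6 a list), some of the 4 most abundant of each list, and the 3 tested genes most like *Nobox* and *Lhx8*. *Gata6*, *Tbp*, *Tcf3*, *Tcf4*, *Tcf12*, *Foxo3*, *Smad2*, *Nanog*, *Sox2*, *Amh*, *Amhr2*, *Foxl2*, *Ptx3*, *Npr2*, *Ptgs2* and *Fshr* fall outside this rule and were named after their values were seen. Alternatives were DESeq2 1.42.0, limma-voom (limma 3.58.1), edgeR's likelihood ratio test, other scalings and filters, leaving out each pool, and the replicate number as a block.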

Additional observations from a re-analysis of the deposited data

How the results depend on the processing

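At this depth *Sohlh1* and *Figla* could not be tested with all 6 pools and edgeR's filter. With 3 pools a group, the 95% intervals of the 8 tested genes left fold changes from 0.576 to 2.02 possible. *Figla* entered the fit without a filter. It also passed the filter when control replicate 1, control replicate 3, quercetin replicate 1 or quercetin replicate 3 was left out. In these fits *Figla* had no unadjusted p under 0.05. None of the 14 alternatives called any of the 10 genes after adjustment. With DESeq2's size factors, without a filter and with DESeq2, 1 of the 8, 9 and 8 genes tested had an unadjusted p under 0.05. It was *Sohlh2* each time, with log2 fold changes of 0.53, 0.52 and 0.53. When a pool was left out, 0 to 1 of the tested genes had such a p (*Sohlh2* without quercetin replicate 2, 0.67, and *Nobox* without quercetin replicate 3).

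Genes called over the whole table numbered 0 in edgeR's quasi-likelihood test, 3 without a filter, 12 with DESeq2, 16 with edgeR's likelihood ratio test, and 0 to 7 when a pool was left out. Those with an unadjusted p under 0.05 numbered 477, 780 without a filter, and 241 (without control replicate 2) to 1563 (without quercetin replicate 3). Of the genes of the related lists, 5 had such a p, 8 without a filter, and 2 to 14 when a pool was left out.

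Where the fold change was near 0, its sign changed. *Nobox* was at -0.03 by library size only and -0.12 with limma-voom, and from -0.56 to 0.26 when a pool was left out. *Lhx8* was at -0.05 by library size only, -0.04 with limma-voom and -0.34 to 0.16 when a pool was left out. *Taf4b* ran from -0.18 to 0.03 and *Sall4* from -0.13 to 0.27 when a pool was left out, and *Sall4* was at 0.01 with DESeq2's size factors, DESeq2 and limma-voom and 0.00 without a filter. The sign of the other tested genes held under all alternatives, and the cause of these changes was not tested.

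The labels number the pools 1 to 3 in each group. Deviations from the group means correlated by 0.296, 0.101 and -0.0303 between pools numbered 1, 2 and 3, so the numbers were not taken to pair the pools, and not every pool correlated best with its own number. With the replicate block, *Nobox* was at -0.12, *Lhx8* at -0.04 and *Sall4* at 0.01. Of the 8 genes tested in that fit, 0 had an unadjusted p under 0.05, and 0 genes were called over the whole table.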
